A study of Mus musculus with 2 samples.

Results

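10 genes of the Notch pathway and the segmentation clock were described in mouse chimeric embryos by single-cell RNA sequencing, out of 29453 genes in the count tables. They were chosen by name and are the ligand genes Dll1, Dll3, Dll4 and Jag1, the receptor genes Notch1 and Notch2, the glycosyltransferase gene Lfng, and the transcription factor genes Hes7, Hes5 and Mesp2. Their spliced and unspliced transcripts were counted in 4956 presomitic-like, somitic-like, neural-like and endothelial-like cells of 2 libraries. The tdTom+ library held cells that came from injected embryonic stem cells of a tdTomato-expressing line, a single clone edited with Cas9 and carrying a frameshift of 38 bp in exon 4 of Gata1. The tdTom- library held the unedited wildtype cells of the C57BL/6 hosts into whose blastocysts the clone was injected. Both came from 1 pool of 6 chimeric embryos whose cells were sorted by tdTomato fluorescence, so host and injected cells had shared the same embryos. The embryos were harvested at E8.5, whereas the age label reads E8.5 for the tdTom+ and E8.6 for the tdTom- sample. One label field writes the injected genotype as Gata1-/-. Stem cell line, strain, Gata1 genotype and library differ together between the fractions and cannot be told apart in any value below.

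Notch ligands of the Delta and Jagged families bind NOTCH receptors on neighbouring cells, and the receptor then releases an intracellular fragment that acts in the nucleus with the DNA-binding protein RBPJ. In the presomitic mesoderm, Notch activity oscillates with the segmentation clock, in which Hes7 and Lfng are cyclic genes, and Mesp2 marks the next segment border before the somite forms. In neural progenitors Hes5 is a Notch target that holds back neuronal differentiation, and in endothelium Dll4 and Notch1 act in arterial fate and vessel sprouting.

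Promoters are shown for Lfng, Hes7, Hes5 and Mesp2, the members with the largest differences between the fractions in presomitic-like cells. The sequences are those of RefSeq on GRCm38.p6, where all 10 members had an entry, and cover up to 250 bases before the RefSeq start, ending before the first base that the GENCODE annotation gives to the gene. All 4 lie on the plus strand, Lfng at chr5:140607091-140607319, Hes7 at chr11:69120203-69120403, Hes5 at chr4:154960673-154960922 and Mesp2 at chr7:79810477-79810726. Capitals mark TGGGAA on either strand (TTCCCA on the strand shown), the core of the motif that RBPJ binds, and CACGTG, a palindromic E-box of the kind that basic helix-loop-helix proteins bind.
Lfng: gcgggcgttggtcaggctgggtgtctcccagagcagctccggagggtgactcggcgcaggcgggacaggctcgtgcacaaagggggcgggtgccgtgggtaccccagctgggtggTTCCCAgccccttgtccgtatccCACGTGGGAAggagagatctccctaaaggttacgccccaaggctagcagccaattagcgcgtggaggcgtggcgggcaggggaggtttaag
Hes7: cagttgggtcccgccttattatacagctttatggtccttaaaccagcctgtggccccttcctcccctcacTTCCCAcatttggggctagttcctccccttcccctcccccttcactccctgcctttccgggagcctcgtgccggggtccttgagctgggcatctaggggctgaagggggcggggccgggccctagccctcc
Hes5: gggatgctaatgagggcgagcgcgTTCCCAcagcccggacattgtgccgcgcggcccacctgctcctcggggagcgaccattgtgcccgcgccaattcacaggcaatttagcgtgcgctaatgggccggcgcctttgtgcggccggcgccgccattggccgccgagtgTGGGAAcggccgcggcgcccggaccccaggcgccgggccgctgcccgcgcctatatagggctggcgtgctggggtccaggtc
Mesp2: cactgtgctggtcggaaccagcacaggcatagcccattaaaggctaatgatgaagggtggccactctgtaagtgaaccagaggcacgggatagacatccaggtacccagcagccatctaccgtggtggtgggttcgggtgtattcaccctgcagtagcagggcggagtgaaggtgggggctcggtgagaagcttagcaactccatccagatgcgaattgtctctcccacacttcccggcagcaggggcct
TGGGAA occurred in the windows of Lfng, Hes7 and Hes5 and in none of the other members, so in 3 of 10. Lfng had it 135 and 108 bases before the RefSeq start, Hes7 180 bases before it, and Hes5 226 and 82 bases before it. Of 32851 RefSeq promoter windows of the same length, 21.6% held TGGGAA at least once and 2.77% held it 2 times or more. CACGTG occurred only in the window of Lfng among the members, 112 bases before the start, against 6.02% of all windows. In Lfng the E-box ran into the downstream TGGGAA and shared the letters TG with it, an overlap found in 24 windows (0.0731%). The N-box CACNAG was found on either strand in Dll4, Notch1, Notch2, Lfng and Hes7 and in 36.7% of all windows, and TATAAA in no member and in 12.4% of all windows. The windows of Dll3 and Notch1 and 1 of the 2 of Dll1 lay inside the gene as GENCODE annotates it, since the RefSeq entry starts further downstream, and are counted here as given. These matches describe the letters of the windows alone, and the count tables hold no measure of binding.

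Gata1, the mutated gene, was at 6.73 CPM (spliced unique molecular identifiers, UMIs, each counting 1 captured transcript, per 1000000 spliced UMIs) in the tdTom+ and 29.3 CPM in the tdTom- library, and 57.6% of its tdTom+ UMIs were unspliced against 8.24%. The libraries held 8981 and 9252 barcodes, of which 18 were the same sequence in both, with medians of 17598 and 15996 spliced UMIs per cell. After 4.20% and 5.60% of the barcodes had been called doublets and left out together with 1 cluster rich in such calls, 17276 cells in 30 clusters remained. The 10 members, among 832 genes, were left out of the clustering, so that the classes do not rest on them. There is 1 library per fraction and no replicate check. The 95% intervals given with levels (exact Poisson), shares (exact Clopper-Pearson) and log2 folds (exact, conditional on both counts) cover counting error only and neither the spread between cells nor that between embryos. A difference is called past 2-fold where the log2 fold of tdTom+ over tdTom- CPM is at least 1 in size, its interval excludes 0 and both fractions together have at least 100 spliced UMIs, in the text termed tested.

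The 4 classes carried the markers of their names. The presomitic-like class (571 tdTom+ and 368 tdTom- cells) had 7 of 7 markers raised over all other cells, and Tbx6, a T-box factor of this mesoderm, stood at 63.2 and 142.8 CPM in it against 1.55 and 2.35 CPM elsewhere. The somitic-like class (284 and 328 cells) had 6 of 8 markers raised, with Meox1 at 732 and 777 CPM. The neural-like class (967 and 1576 cells) joined 3 clusters with 9, 9 and 7 of 14 markers raised, led by En1, by Crabp2, Pax6 and Hes5, and by Lhx2 and Rax. The endothelial-like class (497 and 365 cells) had 10 of 10 markers raised, with Cdh5 at 165 and 168 CPM. The erythroid marker list, globins included, summed in presomitic-like cells to 175 CPM for tdTom+ against 823 CPM for tdTom- and 166.5 to 170.4 against 859 to 929 CPM in the other classes, so erythroid transcripts were counted in cells of other types in both libraries, at a higher level in tdTom-. Their part in the differences below was not tested. Blood cells were nearly all progenitor-like in tdTom+ and erythroid-like in tdTom-. After thinning every cell to 5000 spliced UMIs, which removes differences in depth between cells, between 0 and 2.95% of tdTom+ blood cells (median 21627 UMIs per cell before thinning) and between 0 and 1.18% of tdTom- blood cells (median 19003) had a UMI of a given member, Notch2 the highest in both. Median depth in the 4 classes was 15114.5 to 16828 UMIs per tdTom+ cell and 13959 to 15584 per tdTom- cell.

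The 4 classes held 25.6% of all spliced UMIs of tdTom+ and 28.9% of those of tdTom- cells, and larger shares of the UMIs of most members. They held 84.8% and 91.0% of Mesp2, 80.5% and 91.5% of Dll4, and 73.8% and 80.0% of Dll1. At the other end stood Jag1, with 39.1% and 49.5%, and Notch2, with 20.3% and 29.8%, in tdTom+ below the share of all UMIs. Dll1, Dll3 and Mesp2 were at their highest in presomitic-like cells of both fractions among the 13 classes with at least 50 cells in each fraction, Dll4 in endothelial-like and Hes5 in neural-like cells. For Mesp2 in tdTom+ the intervals of presomitic-like (6.29 CPM) and somitic-like cells (4.86 CPM) overlapped. Among the classes left out by the minimum of 50 cells was the notochord-like class (41 and 38 cells), in which Notch1 was at 96.6 and 104 CPM and Hes7 at 81.1 and 172 CPM. Among the 13, Notch1 was highest in endothelial-like cells in tdTom+ (81.8 CPM) and in presomitic-like cells in tdTom- (93.9 CPM). In tdTom- the intervals of both classes overlapped. In tdTom+ presomitic-like cells were at 38.7 CPM, but at 77.1 CPM in the finer clustering, where their interval overlapped that of endothelial-like cells. Lfng was at 19.05 and 20.58 CPM in neural-like and 14.5 and 45.3 CPM in presomitic-like cells, and the latter were at 29.9 and 46.3 CPM in the finer clustering described below. Jag1 had no single class. Its level was 30.5 and 29.2 CPM in cardiac-like, 29.8 and 34.9 CPM in endothelial-like and 22.3 and 27.8 CPM in endoderm-like cells, and the intervals of cardiac-like and endothelial-like cells overlapped in both fractions. Notch2 was highest in allantois-like or mesenchyme-like cells at 30.7 and 27.8 CPM. Hes7 was shared by presomitic-like cells and neuromesodermal-progenitor-like cells, the latter at 108 and 76.4 CPM, with endoderm-like cells next among the 13 at 10.4 and 16.7 CPM. The neuromesodermal-progenitor-like class joined a cluster of 470 and 532 cells, in which Hes7 was at 108.8 and 126 CPM, to one of 5 tdTom+ and 501 tdTom- cells.

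**Figure D1:**
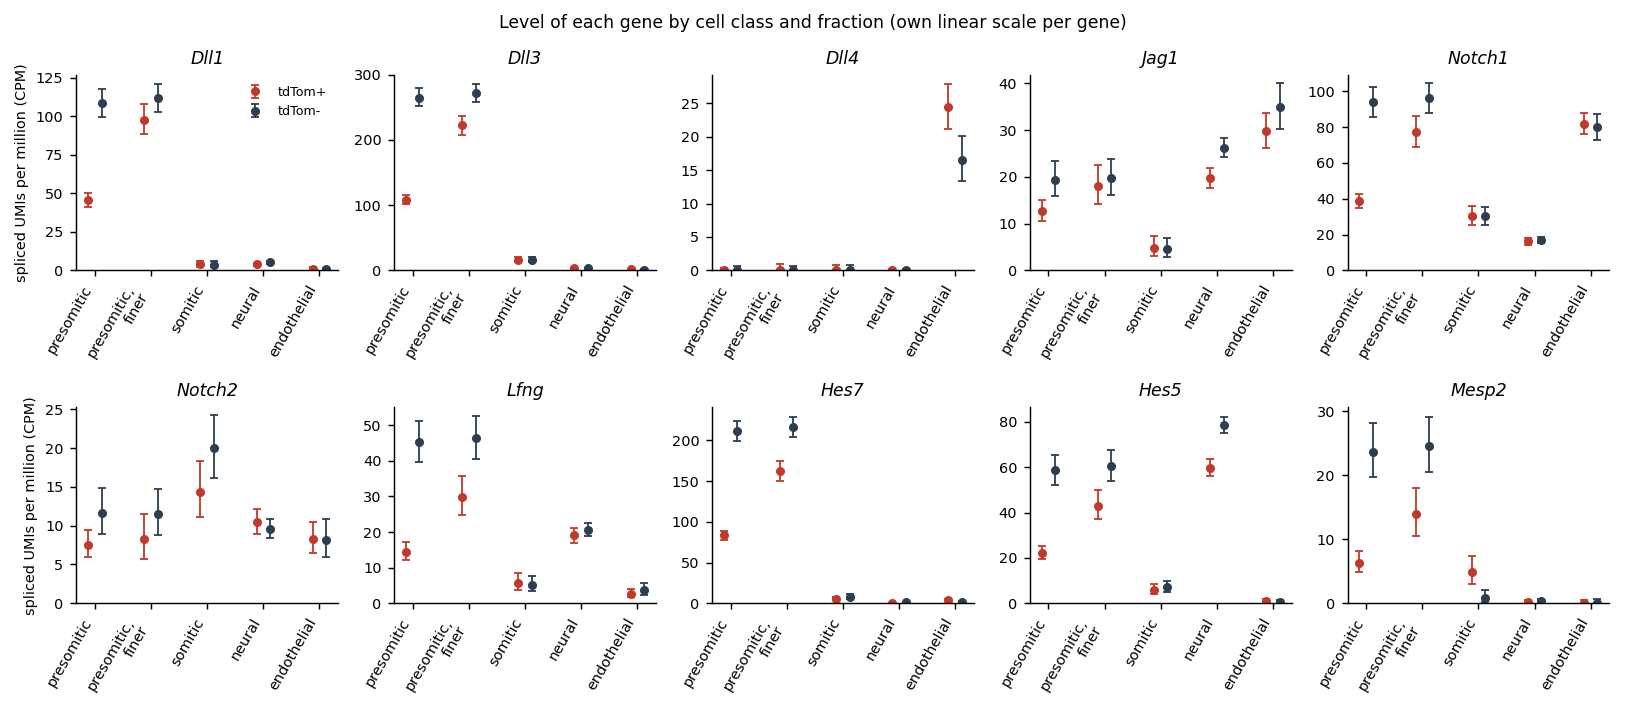
Spliced level of each member (y axis, CPM, its own linear scale for each gene) in the 4 classes and in the presomitic-like cells of the finer clustering (x axis) for tdTom+ (red) and tdTom- (dark blue) cells. Points are levels of summed UMIs and bars are exact 95% Poisson intervals. Dll1, Dll3, Hes7 and Mesp2 stood high in presomitic-like cells, Dll4 in endothelial-like cells alone, and the tdTom+ points of the presomitic-like class moved towards those of tdTom- in the finer clustering.

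In presomitic-like cells, the members of the clock and of its Notch input were lower in tdTom+ than in tdTom- cells, and the size of the difference depended on which cells the class held. Taken as a whole class, 7 of 9 tested members were past 2-fold and all 7 were lower in tdTom+, where 1.04% of 7885 genes tested were lower by that rule, and 2.16% in either direction. The log2 folds were -1.91 for Mesp2 (6.29 and 23.7 CPM), -1.65 for Lfng (14.5 and 45.3 CPM), -1.40 for Hes5 (22.2 and 58.6 CPM) and -1.34 for Hes7 (83.2 and 211 CPM). Dll3 (-1.29), Notch1 (-1.28) and Dll1 (-1.25) were close to each other, Jag1 (-0.61) and Notch2 (-0.63, and 0.07 after thinning) stayed under 2-fold, and the median of the 9 was -1.29 against -0.01 over all genes. At the finer clustering, made with the same settings at a higher resolution, 330 of the 571 tdTom+ cells (57.8%) fell into a cluster led by Cdx4, Osr1 and Hoxd1, and 4 of the 368 tdTom- cells (1.09%). A cluster with the same leading genes in another order lay mostly outside the class and held 5 tdTom+ and 484 tdTom- cells. The presomitic markers of the whole class summed to 589 and 1119 CPM (log2 fold -0.93), with 7 of 7 lower in tdTom+, and the somitic ones to 212 and 502 CPM (-1.25). Markers of other types differed with this makeup. Those of the allantois or mesenchyme list (6 genes) summed to 243 and 49.5 CPM in the whole class, with 3 of 3 tested genes higher in tdTom+. Pharyngeal or cranial mesoderm (238 and 90.4 CPM) and surface ectoderm sums (172 and 57.7 CPM) were higher too, while those of the notochord (67.5 and 142 CPM) and of erythroid cells were lower. Of the endothelial list (10 genes, 65.6 and 17.2 CPM) Kdr alone gave 47.9 and 3.70 CPM, and Egfl7 was at 10.3 and 10.9 CPM. The part of such transcripts in the members' values was not tested. Nrp1 (50.3 and 5.73 CPM, log2 fold 3.13) and Unc5b (17.3 and 7.76 CPM, 1.16), were past 2-fold higher in tdTom+ among 5 tested of the 11 arterial genes, whose median was 0.30 and whose lowest was Efnb2 (-0.82). Tubb3 was past 2-fold lower (-1.38). When called doublets were kept in the clustering, 1 of 8 tested members was past 2-fold. The values that follow are those of the finer clustering, whose presomitic-like cluster held 243 tdTom+ and 353 tdTom- cells with 7 of 7 markers raised.

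Of the ligand genes, Dll1 (chromosome 17, 15367354 to 15376872, minus strand, GRCm38) was at 97.8 CPM (88.5 to 107.9; 402 UMIs) in tdTom+ and 112 CPM (103 to 121; 583 UMIs) in tdTom- presomitic-like cells. Both levels lay close together, and the log2 fold of -0.19 (-0.38 to -0.0037) had an interval that just missed 0 and took 0 in when the scaling was by trimmed means. Dll3 (chromosome 7, 28293553 to 28302238, minus strand), which encodes a divergent ligand that inhibits Notch within the cell, was at 222 CPM (913 UMIs) and 271 CPM (1418 UMIs), a log2 fold of -0.29 (-0.41 to -0.17). After thinning, 64.9% of tdTom+ and 71.2% of tdTom- cells had a Dll3 UMI (90.1% and 90.9% without thinning), the most of any member. Jag1 (chromosome 2, 137081456 to 137116644, minus strand) was at 18.0 and 19.7 CPM, a log2 fold of -0.13 (-0.58 to 0.31), and no difference was detectable at this depth. Dll4 had 0 UMIs in both fractions, with a floor of 3 UMIs at 0.730 CPM for tdTom+ and 0.574 CPM for tdTom-.

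The receptor gene Notch1 (chromosome 2, 26457903 to 26516663, minus strand) was at 77.1 CPM (68.9 to 86.1) and 96.0 CPM (87.8 to 104.8), a log2 fold of -0.32 (-0.52 to -0.11). Notch2 (chromosome 3, 98013527 to 98150361, plus strand) had 34 and 60 UMIs, at 8.27 and 11.5 CPM, and was below the 100 UMIs set for a fold. Its shares of thinned cells, 4.18% and 4.29%, compare with 2.95% and 1.18% of blood cells, and the intervals overlapped in tdTom+ (2.02% to 7.56% and 2.11% to 3.99%) and not in tdTom- (2.37% to 7.10% and 0.673% to 1.90%). Lfng (chromosome 5, 140607320 to 140615545, plus strand), which encodes a sugar transferase that modifies NOTCH and is itself cyclic, was at 29.9 CPM (24.9 to 35.7; 123 UMIs) and 46.3 CPM (40.7 to 52.5; 242 UMIs). The intervals did not overlap, and the log2 fold was -0.63 (-0.95 to -0.31). 11.3% of thinned tdTom+ and 18.1% of tdTom- cells had a Lfng UMI, beside 30.9% and 36.8% unthinned.

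Among the transcription factor genes, Hes7 (chromosome 11, 69120404 to 69124055, plus strand), a repressor at the core of the clock, was at 162 CPM (150 to 175; 665 UMIs) and 216 CPM (204 to 229; 1130 UMIs), a log2 fold of -0.42 (-0.56 to -0.28). It was present in 51.9% and 59.5% of thinned cells (80.7% and 81.9% unthinned), with 3.39 and 3.91 UMIs per cell that had any. Hes5 (chromosome 4, 154960923 to 154962371, plus strand) was at 43.1 CPM (177 UMIs) and 60.5 CPM (316 UMIs), a log2 fold of -0.49 (-0.76 to -0.22). Its thinned shares were close, 15.5% and 17.2%, and unthinned more tdTom+ than tdTom- cells had a UMI, 32.9% and 26.6%, while the UMIs per such cell were 2.21 in tdTom+ and 3.36 in tdTom-. Mesp2 (chromosome 7, 79810727 to 79813439, plus strand), which sets the segment border, was at 13.9 CPM (10.504 to 17.968; 57 UMIs) and 24.5 CPM (20.4 to 29.1; 128 UMIs), the largest log2 fold among the members at -0.82 (-1.30 to -0.36).

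The Mesp2 transcripts sat in few cells. They came from 11 of 243 tdTom+ and 28 of 353 tdTom- presomitic-like cells, with 5.18 and 4.57 UMIs per such cell, and a single tdTom+ cell held 24 of the 57 UMIs (42.1%). The highest tdTom- cell held 21 (16.4%). Without the highest cell of each fraction the log2 fold was -1.35 (-1.96 to -0.78), which is past 2-fold. The size of the Mesp2 difference thus depends on single cells, and the log2 fold stayed negative without the highest cell of each fraction. These intervals count UMIs and not the 11 and 28 cells that held them. In thinned cells the interval of the Mesp2 fold, described below, took in both directions.

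Counted together with no cell left out, 0 of 8 tested members were past 2-fold in the finer presomitic-like cells, where 0.529% of 6811 genes were. 7 of the 8 were lower in tdTom+ with an interval that excluded 0, against 8.27% of all genes lower in this sense. The median log2 fold of the 8 was -0.37, beside -0.02 over all genes tested. In cells thinned to equal depth the log2 fold was -0.42 for Hes7, -0.32 for Dll3, -0.35 for Dll1, -0.59 for Lfng and -0.52 for Hes5, each with an interval that excluded 0, whereas those of Notch1 (-0.29), Mesp2 (-0.65) and Jag1 (0.11) held 0. Other genes of this mesoderm differed as well, the 7 presomitic markers summing to 1066 and 1145 CPM in tdTom+ and tdTom- cells (log2 fold -0.10) and the 8 somitic markers to 424 and 518 CPM (-0.29). Among these, Tbx6 was at 131 and 147 CPM, Msgn1 at 37.2 and 37.3 CPM and Pcdh8 at 18.98 and 34.82 CPM. The 8 neuromesodermal markers summed to 1327 and 1346 CPM (-0.02, -0.07 to 0.03), with T (122 and 145 CPM) and Fgf8 (169 and 193 CPM) lower and Cdx4 (534 and 495 CPM) higher in tdTom+. Sums of markers of other types differed both ways. Higher in tdTom+ were those of the intermediate or lateral mesoderm at 189 and 135 CPM, mostly Osr1 (151 and 102 CPM). So were those of the allantois or mesenchyme at 76.6 and 46.7 CPM, cardiac ones at 51.1 and 32.7 CPM and neural ones at 789 and 739 CPM. Of 4 neural markers tested, 1 was higher by its interval. Lower in tdTom+ were those of erythroid cells (177 and 820 CPM), the endoderm (24.1 and 34.4 CPM) and extraembryonic endoderm (2.43 and 10.14 CPM). Surface ectoderm (46.7 and 58.2 CPM) and notochord sums (124.6 and 146.5 CPM) were lower too. No marker of the endoderm or extraembryonic endoderm lists had enough UMIs to be tested. Pharyngeal or cranial mesoderm ones, at 88.1 and 84.9 CPM, had an interval that held 0. The part of these differences in the members' values was not tested.

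**Figure D2:**
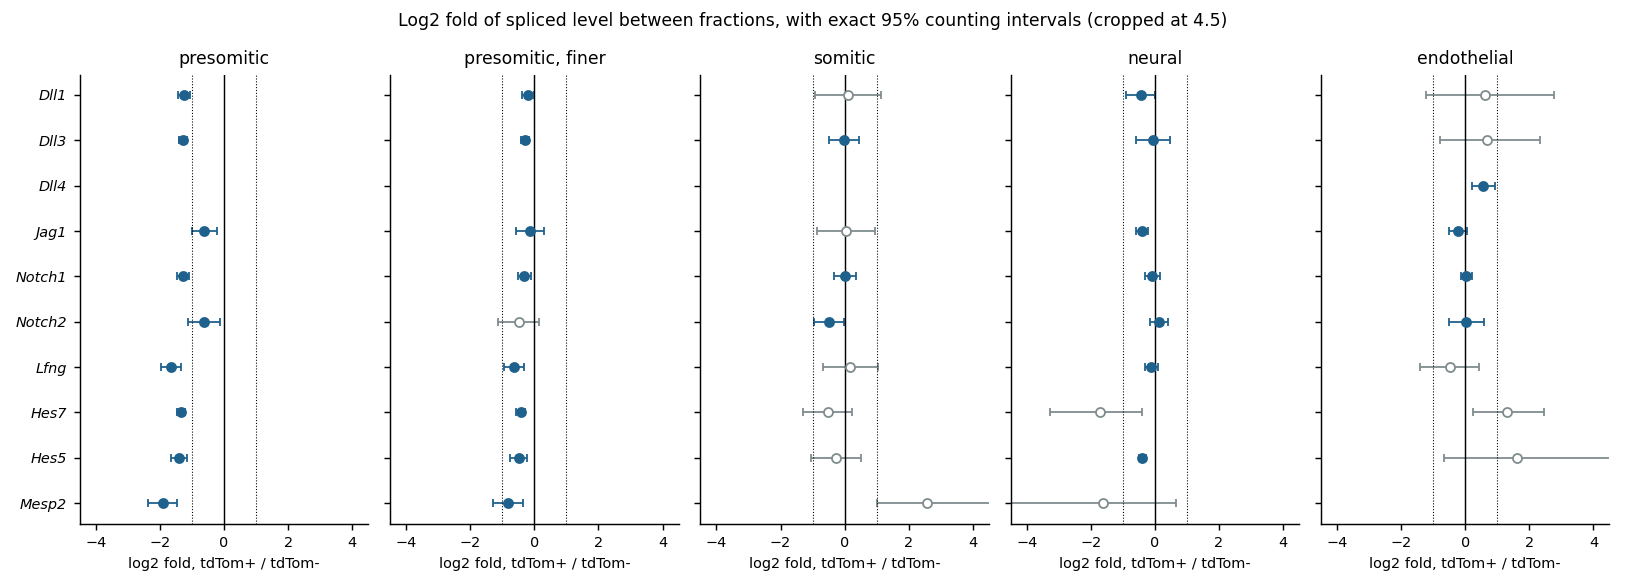
Log2 fold of tdTom+ over tdTom- spliced level for each member (y axis) in the 4 classes and in the finer presomitic-like cells (panels). Bars are exact 95% counting intervals cropped at the panel edge, filled points have at least 100 UMIs in both fractions together, and dotted lines mark a 2-fold difference. 7 members lay beyond the left dotted line in the whole presomitic-like class and none in the finer one, where all points were left of 0.

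Cells that joined the finer presomitic-like cluster were also pooled with the somitic-like class, so that a cell on the border of both could not change sides. The pool joined 243 tdTom+ and 353 tdTom- presomitic-like cells to 284 and 328 somitic-like cells. Its makeup thus differed between the fractions, and the part of this in the folds was not tested. 0 of 9 tested members were past 2-fold, and the log2 folds were -0.28 for Dll1, -0.38 for Dll3, -0.31 for Notch1, -0.61 for Lfng, -0.52 for Hes7, -0.55 for Hes5 and -0.50 for Mesp2. In the clusters led by Osr1, Hoxd1 and Cdx4 of both fractions, Dll3 was at 17.4 and 17.8 CPM (log2 fold -0.03) and Hes7 at 18.7 and 23.6 CPM (-0.34, -0.65 to -0.02). Dll1 had 42 and 32 UMIs there and Mesp2 5 and 0. Lfng had 18 and 45 UMIs, at 2.05 and 5.93 CPM, a log2 fold of -1.53 (-2.41 to -0.72). Dll1, Mesp2 and Lfng were below the UMI minimum set for a call in these clusters. The log2 folds of Jag1, Notch1, Notch2 and Hes5 had intervals that held 0. For these clusters the share of all genes that differed by their intervals is not given here. In both fractions these cells held less of Dll3 and Hes7 than the presomitic-like cluster did.

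Within the finer presomitic-like cluster, cells were grouped by their UMIs of the 8 somitic markers after thinning. Whether the same count marks the same stage in both fractions was not tested, and the sum of these markers itself differed between them. Cells with none numbered 142 tdTom+ and 194 tdTom-, those with 1 to 2 numbered 51 and 54, and those with 3 or more numbered 46 and 78. T, a factor of the tailbud, was found in 55.6% and 55.2% of the first, 19.6% and 25.9% of the second and 13.0% and 15.4% of the third group, nearly alike in both fractions. Hes7 varied little along this range, with 49.3%, 58.8% and 52.2% in tdTom+ and 58.2%, 63.0% and 60.3% in tdTom- cells. Mesp2 was concentrated at its end, at 0.704%, 0 and 6.52% of tdTom+ and 0.515%, 1.85% and 16.7% of tdTom- cells. Ripply2, a repressor that acts after Mesp2, was found in 0 cells of the first and second groups, which at this depth allows a share of cells with a UMI, not of cells that express it, of up to 2.56% and 6.98% in tdTom+ and 1.88% and 6.60% in tdTom-, and then in 6.52% (1.37% to 17.9%) of tdTom+ and 19.2% (11.2% to 29.7%) of tdTom- cells. The share of Lfng in tdTom- was 13.4% (8.945% to 19.02%) in the first and 29.5% (19.7% to 40.9%) in the last group, while in tdTom+ it was 7.04%, 21.6% and 13.0%. Dll1 stood at 38.0%, 35.3% and 39.1% in tdTom+ and at 41.2%, 42.6% and 51.3% in tdTom- cells. In cells of 3 or more somitic marker UMIs the intervals of the fractions overlapped for each of these genes, and no difference between them was resolved bin by bin.

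**Figure D3:**
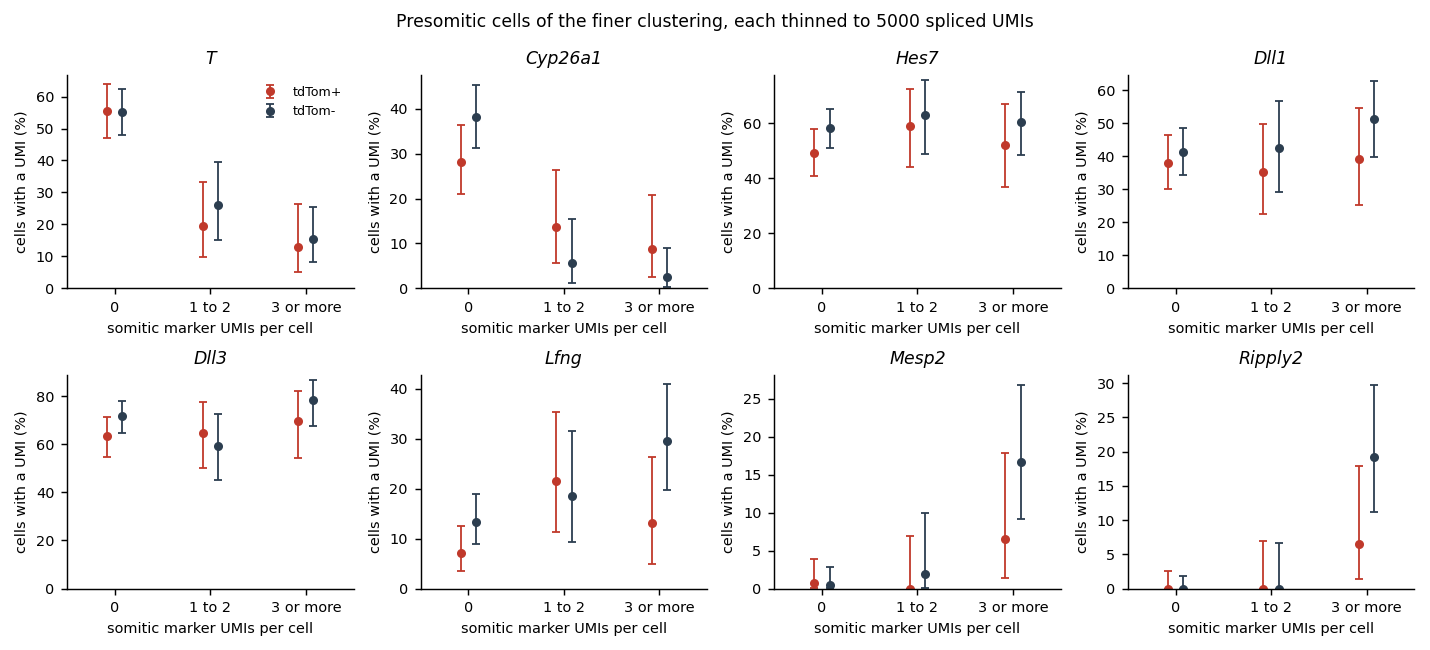
Share of presomitic-like cells of the finer clustering with a UMI (y axis, percent) by the number of somitic marker UMIs in the cell (x axis), for 8 genes, each cell thinned to 5000 spliced UMIs. Points are tdTom+ (red) and tdTom- (dark blue) and bars are exact 95% intervals. T and Cyp26a1 were lower to the right in both fractions, Mesp2 and Ripply2 were found mostly in the last bin, with 16.7% and 19.2% of tdTom- cells, and Hes7 stayed between 49.3% and 63.0%.

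Pairs of members were counted in the same presomitic-like cells after thinning. Lfng was found in 15.3% of tdTom+ cells with Hes7 (19 of 124) and 6.96% of those without it (8 of 115), and in 22.7% (44 of 194) and 11.4% (15 of 132) of the tdTom- cells. Mesp2 was found in 7.41% of tdTom+ cells with Lfng (2 of 27) and 0.943% without (2 of 212), and in 13.6% (8 of 59) and 2.62% (7 of 267) of tdTom- cells. 7 of the 15 tdTom- cells with Ripply2 had Mesp2, and 2 of 3 in tdTom+. Dll3 accompanied Dll1 in 72.2% of tdTom+ and 80.4% of tdTom- cells with Dll1, against 60.4% and 63.9% of those without. Mesp2 with and without Hes7 rested on 3 and 1 tdTom+ and 6 and 9 tdTom- cells, and the intervals overlapped. Of the other pairs, the intervals of cells with and without the first gene overlapped for Lfng by Hes7 in both fractions and for Mesp2 by Lfng and Dll3 by Dll1 in tdTom+, and did not overlap for the latter pairs in tdTom- or for Mesp2 by Ripply2. At 10000 UMIs those of the latter pairs overlapped in tdTom- too, whereas without thinning they did not. The intervals of Mesp2 by Ripply2 overlapped neither at 10000 UMIs nor without thinning. These shares describe cells of 1 library each.

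Genes of the segmentation clock and somite boundary outside the members were counted as well. Of 20 genes in that list 16 were tested, and 2 were past 2-fold in the finer presomitic-like cells, Mesp1 and Ripply2. Of all 6811 genes tested there, 0.529% were past 2-fold. Mesp1, the neighbouring relative of Mesp2, was at 17.3 and 38.8 CPM in tdTom+ and tdTom- cells (log2 fold -1.17, -1.58 to -0.77), and Ripply2 at 6.08 CPM (25 UMIs) and 27.5 CPM (144 UMIs), a log2 fold of -2.18 (-2.85 to -1.56). The Ripply2 UMIs came from 7 of 243 tdTom+ and 24 of 353 tdTom- cells. The 4 genes of the list with the most UMIs stayed under 2-fold. Sp5 was at 180 and 193 CPM, Epha4 at 115 and 128 CPM, Dusp4 at 113 and 111 CPM, and Nkd1 at 119 and 103 CPM. The median of the list was -0.12 against -0.02 of all genes. In the whole class 4 of the 16 were past 2-fold, all lower in tdTom+, namely Ripply2 (-3.23), Mesp1 (-1.85), Nrarp (-1.13) and Spry2 (-1.01), the last chosen after its value was seen. Of all 7885 genes tested in the whole class, 1.04% were lower by that rule. Of the 39 genes of the wider Notch pathway list 23 were tested in the finer cells, none was past 2-fold and the median was -0.01. Snw1, a nuclear cofactor, was at 299 and 285 CPM in the whole class, and Ctbp1, Psenen and Maml3 had folds between -0.20 and 0.19 there.

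In somitic-like cells the clock members were low in both fractions. 3 members were tested and 0 were past 2-fold, where 0.624% of 6895 genes were, and 1 had an interval that excluded 0, against 16.4% of all genes. Dll3 stood at 15.9 CPM (72 UMIs) and 16.1 CPM (79 UMIs), a log2 fold of -0.02 (-0.50 to 0.46), and Notch1 at 30.3 and 30.1 CPM (0.01, -0.34 to 0.35). Notch2 was at 14.4 CPM (11.1 to 18.3) and 19.96 CPM (16.2 to 24.3), a log2 fold of -0.48 (-0.95 to -0.0088), higher here than in presomitic-like cells of either fraction. Dll1, Jag1, Lfng, Hes7 and Hes5 lay between 3.67 and 7.94 CPM. Mesp2 had 22 UMIs in 3 tdTom+ cells, 20 of them in 1 cell (90.9%), and 4 UMIs in 3 tdTom- cells. The Mesp2 log2 fold was 2.58 (1.02 to 4.57), below the 100 UMIs set for a call, and 0.12 without the highest cell of each fraction. The median of the 21 tested genes of the Notch pathway list was -0.09, beside -0.03 over all genes, and 0 of these were past 2-fold, with Snw1 at 305 and 329 CPM. Of the segmentation list 13 genes were tested, 0 were past 2-fold and the median was 0.03.

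In neural-like cells Hes5 and Jag1 were lower in tdTom+ than in tdTom- cells, by less than 2-fold. 7 members were tested and 0 were past 2-fold, where 0.721% of 9985 genes were. 2 of the 7 had an interval that excluded 0, both lower in tdTom+, against 16.6% of all genes lower in this sense. Hes5 was at 59.8 CPM (56.2 to 63.7; 1002 UMIs) and 78.7 CPM (75.3 to 82.3; 1947 UMIs), a log2 fold of -0.40 (-0.51 to -0.29). The difference was present in each of the 3 neural-like clusters. The log2 fold was -0.58 (43.1 and 64.2 CPM) in the En1-led cluster, -0.59 (92.7 and 139 CPM) in that led by Crabp2, Pax6 and Hes5, and -0.57 (21.7 and 32.1 CPM) in that led by Lhx2 and Rax. Of all genes tested in these clusters, 11.8%, 11.7% and 8.51% were lower in tdTom+ with an interval that excluded 0. In the neuromesodermal-progenitor-like cluster shared by both fractions (470 and 532 cells), Hes5 was at 38.3 and 55.7 CPM, a log2 fold of -0.54 (-0.75 to -0.33). For that cluster the share of all genes is not given here. Thinned shares of Hes5 were closer, 18.1% of tdTom+ and 20.7% of tdTom- neural-like cells (36.6% and 38.6% unthinned), and the highest cell held 28 UMIs in tdTom+ and 52 in tdTom-.

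Jag1 was at 19.7 CPM (17.6 to 21.9) and 26.2 CPM (24.2 to 28.3) in neural-like cells, a log2 fold of -0.41 (-0.60 to -0.22). By cluster its log2 fold was -0.29 in the En1-led, -0.95 (10.1 and 19.6 CPM; -1.38 to -0.53) in the Pax6-led and -0.40 (-0.98 to 0.15) in the Rax-led cells, so that the last could not be told from 0. Lfng was at 19.05 and 20.58 CPM (log2 fold -0.11), Notch1 at 16.2 and 17.1 CPM (-0.08) and Notch2 at 10.5 and 9.54 CPM (0.13), each with an interval that held 0. Dll1, the ligand of newborn neurons, was at 3.88 CPM (65 UMIs) and 5.26 CPM (130 UMIs), a log2 fold of -0.44 (-0.89 to 0.0028), and Dll3 at 3.16 and 3.28 CPM (-0.05). Hes7 had 6 and 29 UMIs and Mesp2 2 and 9, both too few for a fold, and Dll4 had 0 in both.

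The makeup of the class differed between the fractions, since the Lhx2-led cluster held 156 of its tdTom+ and 434 of its tdTom- cells. Over the 14 neural markers the sum was 2596 and 2744 CPM, with 7 markers lower and 1 higher in tdTom+ by their intervals, among them Lhx2 (32.7 and 65.9 CPM) and Sox2 (171 and 338 CPM, log2 fold -0.99). Sox2 also differed outside the class, 18.6 and 42.2 CPM in all other cells. The part of such differences in the values of Hes5 and Jag1 was not tested. Within the clusters the neural markers were lower in tdTom+ too, their sums having log2 folds of -0.16 (En1-led, 6 of 11 tested lower), -0.26 (Pax6-led, 7 of 10) and -0.21 (Rax-led, 2 of 11, with 2 higher). In the Pax6-led cells, where Hes5 was at -0.59, Hes3 was at -0.57, Nkx6-1 at -0.50, Irx3 at -0.45 and Olig2 at -0.98, and of 4 somitic markers tested 3 were higher in tdTom+, among them Meox1 (0.63) and Tcf15 (0.97), and Aldh1a2 was lower (-0.22, -0.40 to -0.05). Of 12 genes of neurogenesis 6 were tested, 0 were past 2-fold and the median was -0.45 against -0.03 of all genes, with Tubb3, a neuronal tubulin, at 42.6 and 66.5 CPM, Hes6 at 23.2 and 30.2 CPM, Mfng at 5.67 and 8.13 CPM and Btg2 at a log2 fold of -0.20. Neurog2, a proneural factor, was found in 4.65% of tdTom+ cells with Hes5 (8 of 172) and 1.41% without it (11 of 779), and in 5.06% (16 of 316) and 1.90% (23 of 1212) of tdTom- cells, with intervals that overlapped in tdTom+ only. At 10000 UMIs and without thinning they overlapped in neither fraction, the tdTom+ shares being 6.37% against 1.24% and 7.34% against 2.28%. In the list of neural progenitor genes 8 were tested and 0 past 2-fold, with Hes3 at 89.9 and 105 CPM, Sox3 at 96.3 and 93.2 CPM and Nes at 66.3 and 68.1 CPM. 33 of 39 Notch pathway genes were tested in neural-like cells, with 0 past 2-fold and a median of -0.08.

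In endothelial-like cells Dll4 was higher in tdTom+ than in tdTom- cells while Notch1 differed by less than its counting error. 4 members were tested and 0 were past 2-fold, where 0.594% of 7907 genes were, and only the interval of Dll4 excluded 0, as for 22% of all genes in either direction. Dll4 (chromosome 2, 119325784 to 119335962, plus strand), an endothelial ligand, was at 24.4 CPM (21.2 to 27.9; 211 UMIs) and 16.5 CPM (13.3 to 20.1; 97 UMIs), a log2 fold of 0.57 (0.21 to 0.93). 13.5% of thinned tdTom+ and 7.39% of thinned tdTom- cells had a Dll4 UMI (26.2% and 16.4% unthinned), and in thinned cells the log2 fold was 1.05 (0.42 to 1.71), which is past 2-fold. Notch1 was at 81.8 CPM (75.9 to 88.0) and 79.9 CPM (72.9 to 87.5), a log2 fold of 0.03 (-0.14 to 0.20). Jag1 was at 29.8 and 34.9 CPM (-0.23, -0.50 to 0.04) and Notch2 at 8.32 and 8.14 CPM (0.03, -0.52 to 0.59). Dll1, Dll3, Lfng, Hes7 and Hes5 had 2 to 36 UMIs in a fraction, too few for a call, and Mesp2 had 0.

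The finer clustering held 2 endothelial-like clusters, with nearly the cell numbers of the class, one of cells led by Lyve1, a receptor of vascular and yolk sac endothelium (250 tdTom+ and 208 tdTom- cells), and one of cells led by Etv2, an early endothelial factor, with Kdr and Gja4 (250 and 159 cells). The ligand genes divided between them in opposite ways. Dll4 was at 47.6 CPM (188 UMIs) and 29.5 CPM (89 UMIs) in the Lyve1-led and at 5.06 CPM (24 UMIs) and 3.09 CPM (9 UMIs) in the Etv2-led cells. Jag1 was at 1.52 CPM (6 UMIs) and 6.62 CPM (20 UMIs) in the Lyve1-led and at 52.7 CPM (250 UMIs) and 63.9 CPM (186 UMIs) in the Etv2-led cells. Notch1 was present in both, at 98.5 and 103 CPM in the Lyve1-led (log2 fold -0.07, -0.29 to 0.15) and 68.0 and 55.3 CPM in the Etv2-led cells (0.30, 0.02 to 0.58), and Notch2 leaned to the Etv2-led cells, 12.8 and 12.7 CPM against 2.79 and 3.64 CPM. The members took no part in the clustering. The Dll4 log2 fold between fractions was 0.69 (0.32 to 1.07) in the Lyve1-led cells, while the 33 UMIs of the Etv2-led cells were too few for a fold. For both clusters the share of all genes that differed by their intervals is not given here. In single cells thinned to 5000 UMIs Jag1 was found in 1 of 64 tdTom+ cells that had Dll4 (1.56%) against 11.2% of those without it, and in 1 of 26 tdTom- cells (3.85%) against 13.2%, with intervals that overlapped in both fractions. At 10000 UMIs the shares were 8.75% against 22.3% in tdTom+ and 5.56% against 24.7% in tdTom-, and the intervals did not overlap. Without thinning they were 10.8% against 31.9% (no overlap) and 16.7% against 30.8% (overlap).

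**Figure D4:**
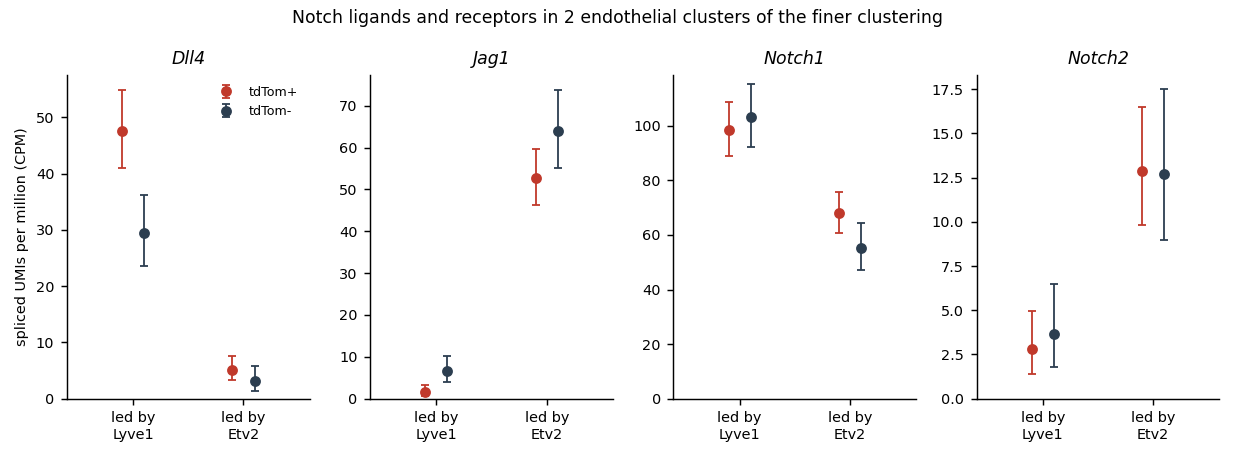
Spliced level (y axis, CPM, its own linear scale for each gene) of Dll4, Jag1, Notch1 and Notch2 in the Lyve1-led and Etv2-led cells of the finer clustering (x axis), for tdTom+ (red) and tdTom- (dark blue). Bars are exact 95% Poisson intervals. Dll4 was high on the left, 47.6 and 29.5 CPM, and Jag1 on the right, 52.7 and 63.9 CPM, in both fractions.

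Among thinned endothelial-like cells with Dll4, Hey1, a Notch target of arterial endothelium, was found in 21.9% of tdTom+ and 23.1% of tdTom- cells, against 12.2% and 12.6% of cells without Dll4. Notch1 was found in 40.6% and 50% against 28.7% and 31.9%. Gja4, an arterial gap junction gene, was found in 25% and 34.6% against 29.7% and 27.6%, and Cxcr4 in 1.56% and 0 against 2.19% and 1.23%. Lyve1 was found in 26.6% and 38.5% against 13.63% and 15.95%. At 5000 UMIs per cell the intervals of cells with and without Dll4 overlapped for Hey1, Notch1, Gja4, Cxcr4 and Lyve1 in both fractions. At 10000 UMIs and without thinning those of Lyve1 in both fractions and of Notch1 in tdTom- did not, and those of Hey1 in tdTom- did not at 10000 UMIs. Of 11 arterial genes 7 were tested and 0 were past 2-fold, with a median of -0.0029 beside -0.03 over all genes. Hey1 was at 38.1 and 28.5 CPM (log2 fold 0.42, 0.15 to 0.70) and Gja4 at 102 and 117 CPM (-0.21, -0.35 to -0.06). Of the 7, these 2 had intervals that excluded 0, as had 22% of all genes tested in endothelial-like cells. Sox17 was at 114 and 115 CPM and Nrp1 at 107 and 112 CPM. 6 of 6 venous and lymphatic genes were tested with 0 past 2-fold and a median of -0.18, led by Lyve1 at 154 and 238 CPM (-0.63, -0.74 to -0.52). Nrp2 was at 107 and 98.1 CPM, Flt4 at 70.5 and 68.0 CPM and Nr2f2 at 26.6 and 33.6 CPM. The 10 endothelial markers summed to 1866 and 2005 CPM, with 5 lower and 1 higher in tdTom+. Among marker sums of other types, those of surface ectoderm (124 and 163 CPM), extraembryonic ectoderm (85.1 and 110 CPM) and presomitic cells (124 and 148 CPM) were lower in tdTom+. So were pharyngeal or cranial mesoderm ones (115 and 134 CPM), while cardiac ones (63.9 and 52.6 CPM) were higher. The part of these differences in the members' values was not tested. Of the 39 Notch pathway genes 27 were tested in these cells, with 0 past 2-fold and a median of -0.04, and Snw1 at 244 and 255 CPM, Ctbp1 at 140 and 147 CPM, Adam10 at 71.3 and 66.7 CPM and Psenen at 65.4 and 70.7 CPM.

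Unspliced transcripts, those that still held intron sequence, made up very different shares of the members. Over all barcodes they were 72.2% of Notch2 UMIs, 30.9% of Jag1, 15.98% of Dll1, 10.8% of Hes7, 8.56% of Notch1, 7.78% of Dll4, 7.64% of Dll3 and 2.71% of Lfng. Hes5 had 2 unspliced of 5299 UMIs (0.0377%) and Mesp2 0 of 257. The genes at the ends were also long and short, Notch2 spanning 136835 bp and Hes5 1449 bp with 1363 bp of exon, but Notch1, at 58761 bp, had less unspliced than Dll1 at 9519 bp. The shares followed the gene more than the cell type or fraction. Notch2 was between 69.0% and 77.9% unspliced in the 4 classes of both fractions, and Hes7 was at 11.6% (9.37% to 14.1%) in tdTom+ and 9.38% (7.82% to 11.1%) in tdTom- finer presomitic-like cells. For every member and class with at least 30 UMIs of both layers in each fraction, the intervals of the fractions overlapped, whole-class shares being 13.3% to 14.0% in tdTom+ and 14.0% to 14.7% in tdTom- cells. In the case of Dll1 the spliced count was 0.767 of the deposited Cell Ranger total, whereas for the other members it was between 0.969 and 1.05, so the layers leave out more of Dll1 than of the rest.

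**Figure D5:**
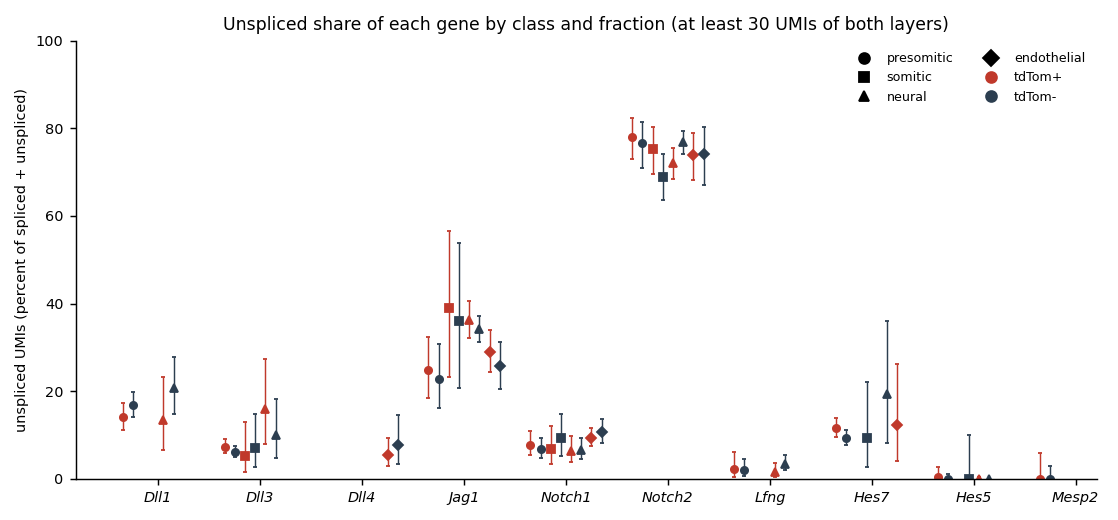
Unspliced UMIs as a percentage of spliced and unspliced UMIs (y axis) for each member (x axis) in the 4 classes (symbols) of tdTom+ (red) and tdTom- (dark blue) cells, where a group had at least 30 UMIs. Bars are exact 95% intervals. Notch2 lay at 69.0% to 77.9%, Jag1 next, and Lfng, Hes5 and Mesp2 close to 0, with the fractions overlapping within each gene and class.

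Across the 30 clusters of the whole embryo, both fractions summed, the likeness of a gene to a member was given by Pearson's r of log2(CPM + 1) among 10942 genes, as a description over clusters that share libraries and depth. Dll1 was most like Dll3 (r = 0.83), and Dll3 most like Tbx6 (0.84), Fgf18 (0.83) and Hes7 (0.83). Hes7 was most like Gnal (0.85), Tbx6 and T (0.84 each), and Mesp2 like Pcdh19 and Wfdc21 (0.74 each) and Dll1 (0.71). In other tissues, Dll4 was most like Gpr182 (0.96), Kcne3 (0.93) and Icam2 (0.91), and Hes5 like Nell2 (0.87), B230323A14Rik (0.86) and Apba2 (0.85). Genes alike to Lfng included Soga3 (0.89) and Apba2 (0.87). Jag1 was most like Syne2 (0.88), Notch1 like Akna (0.86) and Notch2 like Braf (0.87). Mesp2 (254 UMIs) and Dll4 (368 UMIs) themselves lay below the 500 UMIs asked of the genes compared, so their r values rest on few counts.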

How the data were processed

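The authors sequenced one 10x Chromium v3 library from each of the tdTom+ and tdTom- fractions, aligned the reads with Cell Ranger (3.0.2, per the submitters' processing notes) to mm10 with a GRCm38 annotation, called cells with emptyDrops, removed low-quality barcodes and counted spliced and unspliced molecules with velocyto. The deposited values used here are raw UMI counts per cell and gene in both layers, which are not normalized, and the percent of mitochondrial UMIs per cell and Cell Ranger counts per gene from the authors' metadata. Of 18239 cells in the metadata, 6 were not in the matrices. The strand setting of the counting is not given in the sources used here.

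Scrublet, run on each library alone, marked doublets, which were left out with 1 cluster in which over 50% of cells were calls. Cells were scaled to 10000 UMIs, log-transformed and clustered with scanpy 1.11.5 and leidenalg 0.10.2 (2444 variable genes, 50 principal components, 20 neighbours, resolution 1.5; 2.5 for the finer clustering), without 832 genes that include the members, the gene lists and the class markers. Each cluster took the name of the class of which it raised most markers at least 2-fold (10 CPM added), with at least 3 needed. The finer clustering was planned as an alternative, and its presomitic-like cluster was put first in the text after the makeup of the class had been seen. The names were rebuilt here and may differ from those of the study.

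Levels are summed spliced UMIs per 1000000 spliced UMIs of the group. Log2 folds are ratios of these levels, called by size and counting error alone as described with the results. With 1 library per fraction no test of a difference between the fractions was made, and no p-value is given. Shares of cells were computed after thinning each cell to 5000 spliced UMIs, leaving out shallower cells (563 of 571 tdTom+ and 338 of 368 tdTom- cells of the presomitic-like class remained), and are given without thinning where stated. The interval code was tested on simulated counts.

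The members and lists were chosen with earlier results of these data known. Genes named besides the members are, for each list, the 4 with the most UMIs in its class and up to 6 largest called genes per class, for each member the 3 most alike over clusters (genes with at least 500 UMIs, CPM pseudocount 1), and Gata1, and some genes that this rule names are not reported here. The genes in the panels by somitic marker count and in the pairs, and the markers named by value, were chosen after values were seen. Alternatives covered the counted layers, scaling by trimmed means (TMM), thinning, subtraction of the level in blood cells, doublets, resolution, marker fold, the UMI minimum and single cells. Promoters came from a RefSeq table on GRCm38.p6 and gene positions from GENCODE M21 (GRCm38). Python 3.11.15, numpy 2.4.6, scipy 1.17.1, pandas 2.3.3 and matplotlib 3.10.9 were used.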

Additional observations from a re-analysis of the deposited data

Results flagged for a closer look

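The differences below compare the log2 fold of tdTom+ over tdTom- between classes where the intervals lay on opposite sides of 0, and none of them was tested. The log2 fold of Hes7 was 1.29 (36 and 10 UMIs) in endothelial-like, -1.71 (6 and 29 UMIs) in neural-like and -0.42 (665 and 1130 UMIs) in finer presomitic-like cells, a difference of 3.004 between the first and the second and of 1.71 between the first and the third. Levels in endothelial-like cells were low, 4.16 and 1.70 CPM against 1.78 and 0.480 CPM in blood cells, and after thinning the endothelial-like fold was 0.25. The log2 fold of Mesp2 was 2.58 in somitic-like and -0.82 in finer presomitic-like cells, a difference of 3.396. 1 tdTom+ somitic-like cell held 20 of the 22 Mesp2 UMIs there.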

How the results depend on the processing

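No paired analysis was possible because each fraction is 1 library and the labels give no second replicate. In the presomitic-like class, where 7 members were past 2-fold, the count was 1 with called doublets kept, 0 at resolution 2.5 and 0 for the finer presomitic-like cells together with the somitic-like class, an alternative chosen after seeing the data. It was 6 to 8 under the 7 other alternatives. These 7 kept the cells of the class, apart from shallow cells left out by thinning, and so do not bear on its makeup. In neural-like cells, where 0 were past 2-fold, it was 1 after the level in blood cells was subtracted (Dll3, -1.02; chosen after seeing the data) and 1 with a minimum of 30 UMIs (Hes7, -1.71). In endothelial-like cells, where 0 were past 2-fold, it was 1 in thinned cells (Dll4, 1.05) and 1 with a minimum of 30 UMIs (Hes7, 1.29). The minimum adds genes to those counted, and the cause of the other changes was not tested. In somitic-like cells it was 0 under every alternative run, though 0 members had enough UMIs after thinning.

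Of the members' log2 folds, 45 of 45 moved by less than their counting interval with TMM scaling, 45 of 45 with unspliced UMIs added, 28 of 36 at resolution 2.5, 34 of 44 after thinning, 29 of 36 with called doublets kept, 37 of 42 with the blood level subtracted, 42 of 45 without the cell with the most UMIs and 1 of 9 for the finer presomitic-like with the somitic-like cells. Differences within pairs changed sign from that at 5000 UMIs in 10 of 52 cases at 10000 UMIs and 11 of 52 without thinning. Shares of cells left their counting interval in 63 and 80 of 100 cases at these depths, and unspliced shares did so in 27 of 89 after thinning. Among 22 folds with an interval off 0, 1 changed sign after thinning, that of Notch2 in presomitic-like cells, from -0.63 to 0.07. Subtraction of erythroid-like levels was not run because that class held 2 tdTom+ cells, and no presomitic-like class existed at resolution 0.8. After the level in blood cells was subtracted, the log2 fold of Notch2 was -0.39 in neural-like, -0.77 in endothelial-like and -1.79 in presomitic-like cells, against 0.13, 0.03 and -0.63 without it. The level subtracted came from unlike blood cells, nearly all progenitor-like in tdTom+ and erythroid-like in tdTom-. It may include their own transcripts, so these folds, and that of Dll3 above, do not separate a class's transcripts from those of other cells. Depth limits the calls, since 3 of 10 members in somitic-like and 4 of 10 in endothelial-like cells had 100 UMIs or more.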

Other observations

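Outside the 4 classes, members were also found in the neuromesodermal-progenitor-like cluster that both fractions shared (470 tdTom+ and 532 tdTom- cells). Dll3 was at 53.5 and 49.6 CPM (log2 fold 0.11, -0.09 to 0.30) and Dll1 at 12.1 and 11.1 CPM (0.13, -0.30 to 0.55), both with intervals that held 0. Hes7 was at 108.8 and 126 CPM, a log2 fold of -0.21 (-0.34 to -0.08), and Notch1 at 22.3 and 27.2 CPM (-0.29, -0.57 to -0.0020). The share of all genes that differed in this way within the cluster is not given here. Lfng was at 8.75 and 9.23 CPM, with 71 and 80 UMIs.

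The notochord-like cells were few, 41 in tdTom+ and 38 in tdTom-. Hes7 was at 81.1 CPM (58.5 to 109.7; 42 UMIs) and 172 CPM (136 to 213; 81 UMIs) in these cells, and the intervals did not overlap. How many of all genes differed in this way in so few cells was not counted, so the Hes7 values have no share to be set against. Notch1 was at 96.6 and 104 CPM, with 50 and 49 UMIs. Hes5 had 0 and 5 UMIs.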
